A study of Rattus norvegicus with 6 samples.

Results

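The 106 rows described here carry the names of cytosolic ribosomal proteins in an RNA sequencing table of 35790 genes from outer hair cells of the rat cochlea. They were chosen by name alone: Rpl or Rps followed by a digit, or Rpsa, Rplp0, Rplp1 or Rplp2, leaving out S6 kinases and hyphenated names. Of these rows, 64 are named for the large subunit and 42 for the small subunit. They hold 93 distinct names, because 8 names stand on more than 1 row and 21 rows share a name. The deposited annotation gives 99 of them the term "structural constituent of ribosome". It does not give it to Rps19bp1, a protein that binds Rps19 and is itself no ribosomal protein, whose name the rule takes.

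There were 3 libraries of basal-turn cells and 3 of apical-turn cells, all from Sprague-Dawley rats, wild type in genotype, aged 9 postnatal days. Outer hair cells are the electromotile sensory cells of the organ of Corti. The basal turn of the cochlea responds to high and the apical turn to low sound frequencies. Per the labels, a library held 30 cells picked under the microscope after collagenase digestion. The labels also give 3 µg of total RNA for making a library and do not say whether RNA was amplified, so the input is uncertain. The labels name no animals, so each p-value speaks to the spread among libraries, which may be technical. The labels give no batch.

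The cytosolic ribosome translates nearly all cellular mRNA. Its small subunit reads the message and its large subunit joins amino acids, and each ribosomal protein is normally built into the particle as a single copy, apart from the stalk proteins P1 and P2. In mammals, mRNAs of these genes mostly begin with a run of pyrimidines, the terminal oligopyrimidine (TOP) motif, through which growth signals set their translation together. In the cochlea, aminoglycoside drugs, which bind ribosomes, harm basal outer hair cells first.

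The shared start of the message was looked for in the RefSeq sequences of 64 member genes on the rat assembly GRCr8, as a run of at least 5 letters, all C or T, that begins with C, on the strand of the gene. Such a run read from a C at the annotated start was present in 20 of 64 member genes (31.2%), against 3.11% of 27457 genes. In some windows, as in that of Rpl35, further C or T letters stand before the marked run. Within 10 bases of the start it was found in 67.2% of member genes and in 31.3% of all genes. It lay at the start in 14 of 38 large subunit genes (36.8%) and in 6 of 26 small subunit genes (23.1%). The genes shown here are those whose values carry the description further on, each from 10 bases before the start to 18 bases from it, 5′ to 3′, with the run in capitals.
Rpl35: cttcctctttCTCTCgaaccgggcggcc
Rpl36a: tataaaCTTCCgttgctgctctagcctc
Rpl28: cccctagtgtCTTTCTTTCCgtctccgg
Rplp0: caccgcacttCTCTCgccaggcgtcctc
Rpl22: gcgcccccctCCCTTTCTgcctcctctg
Rpl22l1: gtggatatccggttccgagttgcgcagc
Rps14: ccgtctctctCTTTCCggtggaggagtc
Rps21: agccacttcCTTTCTgtgttctccgtag
Rps27: cgctttcgctCCTTTCCggcggtgacga
Rps27l: ttcatttgtcattatttgtggtgtccag
The windows are chr3:43165904-43165931 (minus strand) for Rpl35, chrX:102059439-102059466 (plus) for Rpl36a, chr1:78083515-78083542 (minus) for Rpl28 and chr12:46718373-46718400 (minus) for Rplp0. They are chr5:168117951-168117978 (plus) for Rpl22, chr2:113683186-113683213 (plus) for Rpl22l1 and chr18:56498250-56498277 (plus) for Rps14. They are chr3:187724028-187724055 (plus) for Rps21, chr2:177964589-177964616 (minus) for Rps27 and chr8:76443648-76443675 (plus) for Rps27l. In this set Rpl22 and Rps27 have a run at the start, while the windows of their paralogues Rpl22l1 and Rps27l hold none. Rpl28 and Rplp0, the members of lowest basal over apical fold change, have a run at the start, as do Rpl35 and Rps14, whose fold changes were among the higher ones. Over the matched and tested members, the median log2 fold change of basal over apical cells was 0.43 for 19 members with a run at the start and 0.34 for 38 members without one.

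Library totals were 16511675 to 20301499 gene counts in basal and 18617323 to 23140976 in apical libraries, and 3 counts, taken as the floor, stood for 0.147 to 0.184 and 0.125 to 0.159 CPM (counts scaled to library size, with TMM factors). Markers of outer hair cells were present in every library, with 0.826% to 6.5% of counts in basal and 2.05% to 3.92% in apical libraries over 11 genes. Markers of Schwann cells took 0.36%, 3.75% and 2.55% of counts in basal replicates 1 to 3, against 0.0415% to 0.0937% in apical libraries, and all 13 of them had a positive fold change. Markers of macrophages (0.0176% to 0.2% in basal, 0.00143% to 0.00644% in apical libraries), red blood cells (0.246% to 1.14% and 0.0178% to 0.153%) and bone and fibrocytes (0.0552% to 2.24% and 0.065% to 0.128%) also had higher mean shares in basal libraries. Of these, Mag, Egr2 and Fa2h were at 0 in apical replicates 2 and 3, and Cd68 in basal replicates 1 and 2 and apical replicate 2. Markers of spiral ganglion neurons took 0.0175% to 0.0588% in basal and 0.00738% to 0.0158% in apical libraries. Markers of supporting cells took 0.0777% to 0.203% in basal and 0.452% to 1.47% in apical libraries. The part of these cells in the values below was not tested.

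Ribosomal protein mRNA was abundant in both kinds of cell. The 106 rows took 2.46%, 3.12% and 3.76% of all gene counts in basal replicates 1, 2 and 3, against 1.7%, 2.55% and 3.38% in apical replicates 1, 2 and 3. The mean was 3.11% ± 0.65 in basal and 2.54% ± 0.841 in apical libraries (SD, n = 3 each), so the groups overlapped and the difference was within the spread between libraries. Counting error alone was far smaller than this spread, with 95% Wilson intervals of at most 0.00839 percentage points to either side, which do not cover error from the amount of RNA or its amplification. In RNA of whole cells, fewer cells of a type and less RNA per cell cannot be told apart. The large subunit took 1.42%, 1.82% and 2.16% of basal counts, against 1.03%, 1.56% and 2.05% of apical counts. The small subunit took 1.04%, 1.31% and 1.6% of basal counts, against 0.664%, 0.987% and 1.33% of apical counts. Within both groups the replicates kept the same order for both subunits, with replicate 1 lowest and replicate 3 highest. The labels do not say whether the numbers pair the libraries.

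The balance between the subunits separated the libraries where the total did not. For each count in small subunit rows there were 1.36, 1.39 and 1.34 counts in large subunit rows of basal libraries, against 1.55, 1.58 and 1.55 in apical libraries. The ratio averaged 1.37 ± 0.0237 in basal and 1.56 ± 0.0171 in apical libraries (SD, n = 3 each), and the groups did not overlap. This ratio needs no scaling between libraries, and it is given with no p because it sums over the chosen rows. Marker shares of Schwann cells, macrophages, red blood cells, spiral ganglion neurons and supporting cells also did not overlap between the groups. The part of these cells in the ratio was not tested. The groups also did not overlap in the other 7 ways in which the ratio was formed. These share many rows and the same libraries, so they are not independent of each other. Without Rplp0, the ratio averaged 1.26 in basal and 1.42 in apical libraries. Without the 4 rows of most counts, among them Rpl41, Rplp0 and Rps2, it averaged 1.15 in basal and 1.29 in apical libraries. From rows under 1000 bases it averaged 1.07 and 1.16, and from rows with introns 1.38 and 1.59, in basal and apical libraries. With similar and pseudogene rows that the rule leaves out it averaged 1.44 in basal and 1.64 in apical libraries, and from deposited FPKM (fragments scaled by gene length and library total) it averaged 1.23 and 1.38.

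**Figure D1:**
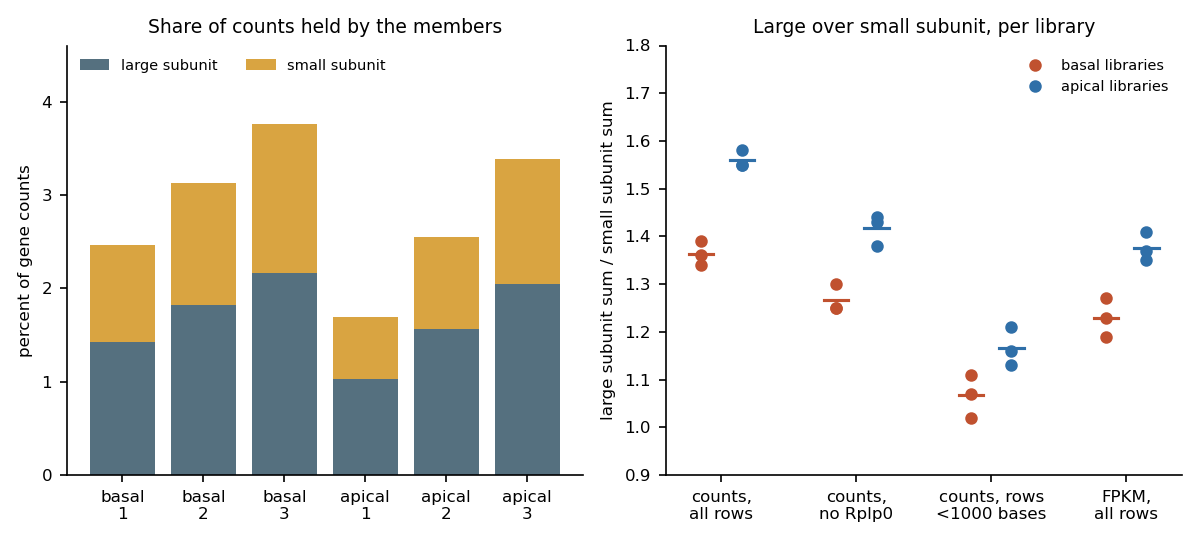
Left, percent of each library's gene counts in large subunit rows (grey) and small subunit rows (yellow), stacked, for 3 basal and 3 apical libraries. Right, the sum over large subunit rows divided by the sum over small subunit rows in each library (points; lines are means), formed in 4 ways; the basal values of 1.34 to 1.39 from all counts lie below the apical values of 1.55 to 1.58.

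Levels per length were compared as FPKM. The highest member was Rpl41, a very short basic peptide of the large subunit, with 3480, 4196 and 3656 FPKM in basal libraries, against 1937, 3572 and 3811 FPKM in apical libraries. It was the highest member in all 6 libraries. Rpl36, another large subunit protein, had 1090, 1588 and 1437 FPKM in basal and 752, 1475 and 1462 FPKM in apical libraries. Apical replicate 1 was the lowest library for both genes, and the groups overlapped for each. Rpl9, which lies near the factor-binding site of the large subunit, averaged 1249 ± 115 FPKM in basal and 1014 ± 309 FPKM in apical libraries (SD, n = 3 each).

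Rplp0 is the base of the ribosomal stalk, to which P1 and P2 bind and which recruits translation factors. It had 1105, 1102 and 1444 FPKM in basal libraries, against 721, 1231 and 2012 FPKM in apical libraries. The apical values enclosed all basal ones, and its log2 fold change, basal over apical, was -0.048 (SE 0.44). The row named Rplp2 had 0, 3 and 1 counts in basal libraries and 1 count in each apical library, at or under the floor of 3 counts. A row described as P1-like, which the rule leaves out, had 17201, 10250 and 17248 counts in basal libraries and 11321, 14404 and 24911 counts in apical libraries.

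In the small subunit the highest level was that of Rps14, a protein of the platform that holds the mRNA, with 1544, 2257 and 1766 FPKM in basal and 866, 1331 and 1544 FPKM in apical libraries. The Rps29 row on chromosome 6, a zinc-binding protein of the head of the subunit, had 1188, 1336 and 1440 FPKM in basal and 736, 1036 and 1288 FPKM in apical libraries. Rps2, at the entry of the mRNA channel, had 843, 1269 and 1656 FPKM in basal and 523, 748 and 1241 FPKM in apical libraries. In each of these the apical mean was below the basal mean, with apical replicate 1 lowest. Rps27 averaged 1111 ± 99 FPKM in basal and 872 ± 345 FPKM in apical libraries, and Rps18 averaged 1032 ± 275 and 752 ± 319 FPKM (SD, n = 3 each). Rpsa, a small subunit protein also known as the laminin receptor, had 568, 611 and 754 FPKM in basal and 323, 525 and 650 FPKM in apical libraries.

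**Figure D2:**
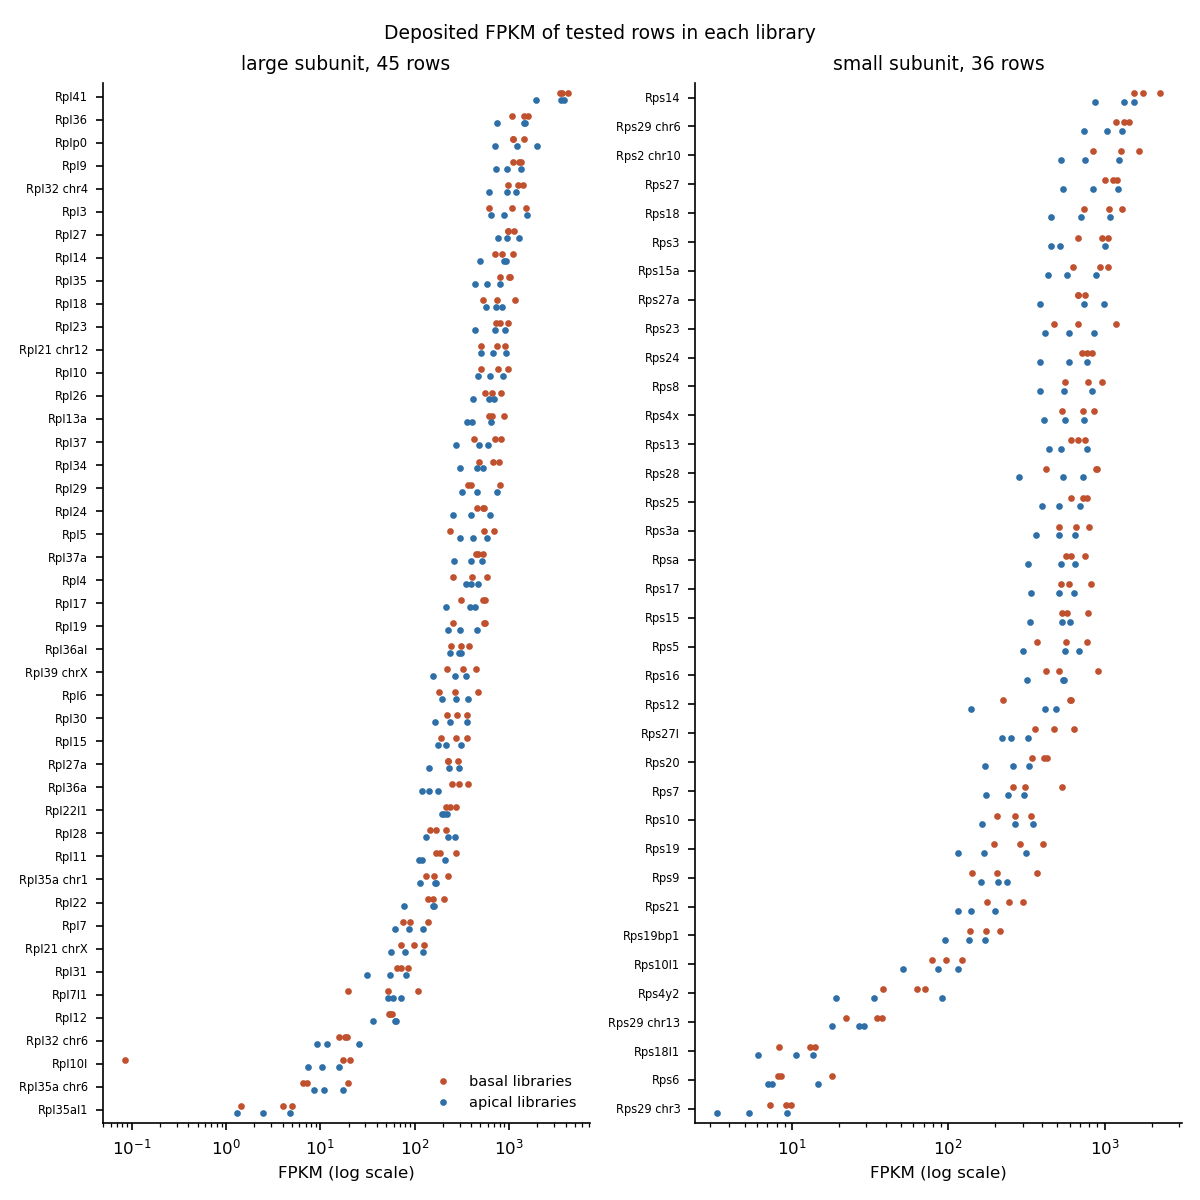
Deposited FPKM (log axis) of 45 large subunit and 36 small subunit rows with enough counts for the test, ordered by mean, in basal (red) and apical (blue) libraries. Rpl41 is highest throughout, and the row Rpl10l falls to 0.0844 FPKM in basal replicate 1.

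Over the 83 rows with enough counts for the test, the median level was 421, 545 and 642 FPKM in basal libraries and 283, 416 and 536 FPKM in apical libraries. The order of the members was nearly the same everywhere. As a description, the rank correlation of FPKM over 83 members was 0.936 to 0.962 between basal libraries, 0.972 to 0.976 between apical libraries and 0.945 to 0.973 across the groups. Over all 13507 genes tested it was 0.605 to 0.717, 0.804 to 0.873 and 0.631 to 0.754 for the same kinds of library pair. Genes of a library share that library and its depth.

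Some members were hardly counted. Of the 23 rows without enough counts for the test, 13 had 0 counts in every library: Rpl10a, Rpl23a, Rpl8, Rpl3l, Rpl39l, Rpl22l2, Rpl31l3, Rps15al2, both Rpl7a rows on chromosome 3, and 1 row each of Rpl30l1 (chromosome 9), Rpl35a (chromosome 12) and Rpl21 (chromosome 3). The untested rows had at most 76 counts in all 6 libraries together, and the tested rows had at least 124. Rpl10a, Rpl23a, Rpl8 and Rpl7a encode proteins that every ribosome holds, so a 0 in their rows is given as a listed value and not as absence of the mRNA. A row described as L8-like, outside the rule, had 996, 1566 and 1998 counts in basal and 1074, 1029 and 1998 counts in apical libraries. In all, 211 rows named as similar to these genes or as their pseudogenes held 349341 counts, against 3376485 in the 106 members. Rps6, the small subunit protein that S6 kinases phosphorylate, was also low, at 8.59, 8.14 and 18 FPKM in basal and 7.47, 7.08 and 14.7 FPKM in apical libraries. Reads of near-identical copies can be split between such rows or dropped, so the level of any one row is uncertain.

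The lowest rows that were tested were mostly intronless copies. Rpl35al1 had 1.46, 4 and 5.03 FPKM in basal and 1.31, 4.84 and 2.47 FPKM in apical libraries, and the Rpl35a row on chromosome 6 had 19.7, 6.61 and 7.31 FPKM in basal and 11.1, 17.3 and 8.51 FPKM in apical libraries. The Rps29 row on chromosome 3 had 7.29, 9.92 and 9.22 FPKM in basal and 3.33, 5.34 and 9.35 FPKM in apical libraries. The groups overlapped for all 3 rows. Not every intronless row was low, and the row of Rps13, a small subunit protein, averaged 677 ± 67.7 FPKM in basal and 583 ± 173 FPKM in apical libraries (SD, n = 3 each).

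No member passed the edgeR quasi-likelihood test of basal against apical cells at an adjusted p of 0.05. Of 13507 genes tested 0% passed, and 0 of 83 members. The lowest adjusted p among members was 0.443 (Benjamini-Hochberg over all genes tested). In simulated counts with all members changed 4-fold, the test called 0 of 83 members. The lack of calls therefore does not show that members were equal between the groups. At an unadjusted p under 0.05, 2 members were higher in basal cells and 0 were lower, against a background of 2.12% higher and 3.88% lower. DESeq2 called 1 member, Rpl36a, where it called 4.55% of genes in all, and the other alternatives called 0 members. By the authors' deposited table, 0 of 93 members with a value had an adjusted p under 0.05, against 0.534% of all rows.

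Fold changes of the members were mostly small and positive. The log2 fold change was positive in 79 of 83 members, 95.2%, against 49% of all genes tested and 46.5% of 1982 genes with a mean of at least 100 CPM, and in 78 to 82 members with the other scalings. Its median was 0.36 (quartiles 0.24 and 0.48), against -0.025 (-0.80 and 0.72) for all genes tested. It was positive in 37 of 37 small subunit rows with a median of 0.45, and in 42 of 46 large subunit rows with a median of 0.28. The fold changes lay close to each other: 80 of 83 members were within 0.5 of their median, against 35.9% of all genes around theirs and 56.3% of genes of at least 100 CPM. The spread of library values within a group was also smaller for members, with a median SD of 0.41 on the log2(CPM + 1) scale, against 1.13 for all genes and 0.57 for genes of at least 100 CPM. No test was made over the rows as a list, and rows that vary together are not independent of each other.

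The size of this shift depended on single libraries. Apical replicate 1 was the lowest library for 76 of 83 members, and basal replicate 3 was the highest for 55. Without apical replicate 1 the members' median log2 fold change was 0.14, with 61 of 84 positive, where the median of all genes tested was 0.039, and that of large subunit rows was 0.056. Without apical replicate 3 the members' median was 0.59 and that of all genes 0.038. Without basal replicate 3 the median of large subunit rows was 0.16, and that of all members was 0.25 with 67 of 85 positive, where the median of all genes was -0.20. Without basal replicates 2 and 3, the basal libraries with the highest Schwann cell marker shares, the members' median was 0.19 with 55 of 85 positive. The median of all genes in that fit was -1.21, against -0.025 with all libraries, so the 2 values of the members are not on a like background.

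**Figure D3:**
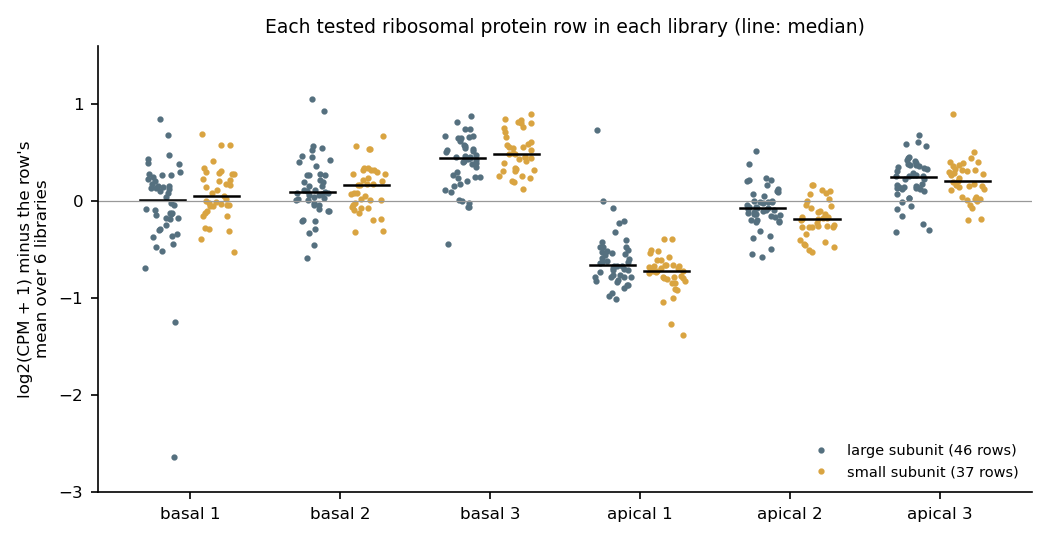
log2(CPM + 1) of each tested row minus its own mean over 6 libraries, for 46 large subunit rows (grey) and 37 small subunit rows (yellow) in 3 basal and 3 apical libraries (lines are medians). Rows of a library move together, lowest in apical replicate 1 and highest in basal replicate 3.

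Rpl36a, a large subunit protein at the site where deacylated tRNA leaves, had the largest fold change. It had 190, 192 and 248 CPM in basal libraries, against 78.9, 93.4 and 114 CPM in apical libraries. Every basal library lay above every apical one. Its log2 fold change was 1.14 (SE 0.36), with an adjusted p of 0.443 in edgeR and 0.029 in DESeq2, and it ranked 426 by p among the 13507 genes. In the authors' deposited table its log2 fold change was 1.21, with an adjusted p of 1. With any single library left out its log2 fold change stayed between 0.99 and 1.28. Rpl36a took 0.681%, 0.638% and 0.662% of all member counts in basal libraries, against 0.469%, 0.370% and 0.349% in apical libraries.

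Rps27l, a paralogue of Rps27 that is a p53 target in human and mouse cells, came next. It had 255, 165 and 305 CPM in basal libraries, against 105, 120 and 150 CPM in apical libraries. The groups did not overlap, and its log2 fold change was 0.95 (SE 0.38), with an edgeR adjusted p of 0.76. Rps21, a small protein of the small subunit, had 48.9, 58.4 and 73.5 CPM in basal and 28.1, 34.1 and 47.3 CPM in apical libraries. Rps20, a protein of the head of the small subunit, had 138, 141 and 152 CPM in basal and 61.3, 92.3 and 113 CPM in apical libraries. Rpl35, at the exit of the peptide tunnel, had 405, 430 and 458 CPM in basal and 194, 260 and 352 CPM in apical libraries. In each of these 3 genes all basal libraries lay above all apical ones, with log2 fold changes of 0.72 (SE 0.56) for Rps21, 0.69 (SE 0.40) for Rps20 and 0.68 (SE 0.35) for Rpl35, none of which passed the edgeR test. A row described as S20-like, outside the rule, held 19635 counts in all, against 13610 in the row of Rps20, and its log2 fold change was 0.55.

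In 12 of 83 members all basal libraries lay above all apical ones in CPM, and in 0 all lay below, against a background of 5.4% above and 10.4% below. Of the 12, 8 were small subunit rows (among them Rps14, Rps20, Rps21, Rps24, Rps25, Rps27l and the Rps29 row on chromosome 6) and 4 were large subunit rows (Rpl22l1, Rpl34, Rpl35 and Rpl36a). Among the 5 members of smallest p in each subunit, Rpl13a, which takes part in silencing of inflammatory mRNAs in human cells, had 457, 521 and 375 CPM in basal and 220, 249 and 384 CPM in apical libraries. Rpl34 had 195, 265 and 242 CPM in basal and 107, 161 and 183 CPM in apical libraries. Rpl11, which binds the ribosomal RNA of the central protuberance together with Rpl5, had 320, 300 and 454 CPM in basal and 182, 195 and 341 CPM in apical libraries. The groups overlapped for Rpl13a and Rpl11, and neither passed the edgeR test, with log2 fold changes of 0.66 (SE 0.36) and 0.58 (SE 0.39). In the small subunit, Rps14 had 796, 993 and 803 CPM in basal and 391, 601 and 681 CPM in apical libraries, with no overlap. Rps7 had 222, 159 and 340 CPM in basal and 109, 152 and 188 CPM in apical libraries, which overlapped. The log2 fold change was 0.63 (SE 0.36) for Rps14 and 0.68 (SE 0.42) for Rps7.

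At the other end stood 4 large subunit rows with fold changes below 0. Rpl28, a large subunit protein, had 255, 249 and 332 CPM in basal libraries, against 202, 340 and 396 CPM in apical libraries. The groups overlapped in CPM, and its log2 fold change was -0.17 (SE 0.37). As a share of all member counts, Rpl28 took 0.917%, 0.827% and 0.886% in basal libraries, against 1.2%, 1.35% and 1.21% in apical libraries, with no overlap. The other 3 were Rplp0 at -0.048, the Rpl35a row on chromosome 6 at -0.016 and Rpl7l1 at -0.0037, which turned to 0.014, 0.056 and 0.076 with RLE scaling and were positive with some library left out. In this share, which compares members with each other, Rpl32 (chromosome 4), Rpl34, Rpl35, Rpl36a, Rps20 and Rps21 were higher in every basal library, and Rpl21 (chromosome 12), Rpl28 and Rps10 were lower. Higher were 4 of 46 large and 2 of 37 small subunit rows, and lower were 2 large and 1 small subunit rows. Over all genes tested, counts scaled the same way gave 2.57% above and 14.4% below. That background moves with the summed member counts, whose mean share was higher in basal libraries. It is therefore not a like measure for members compared with each other.

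**Figure D4:**
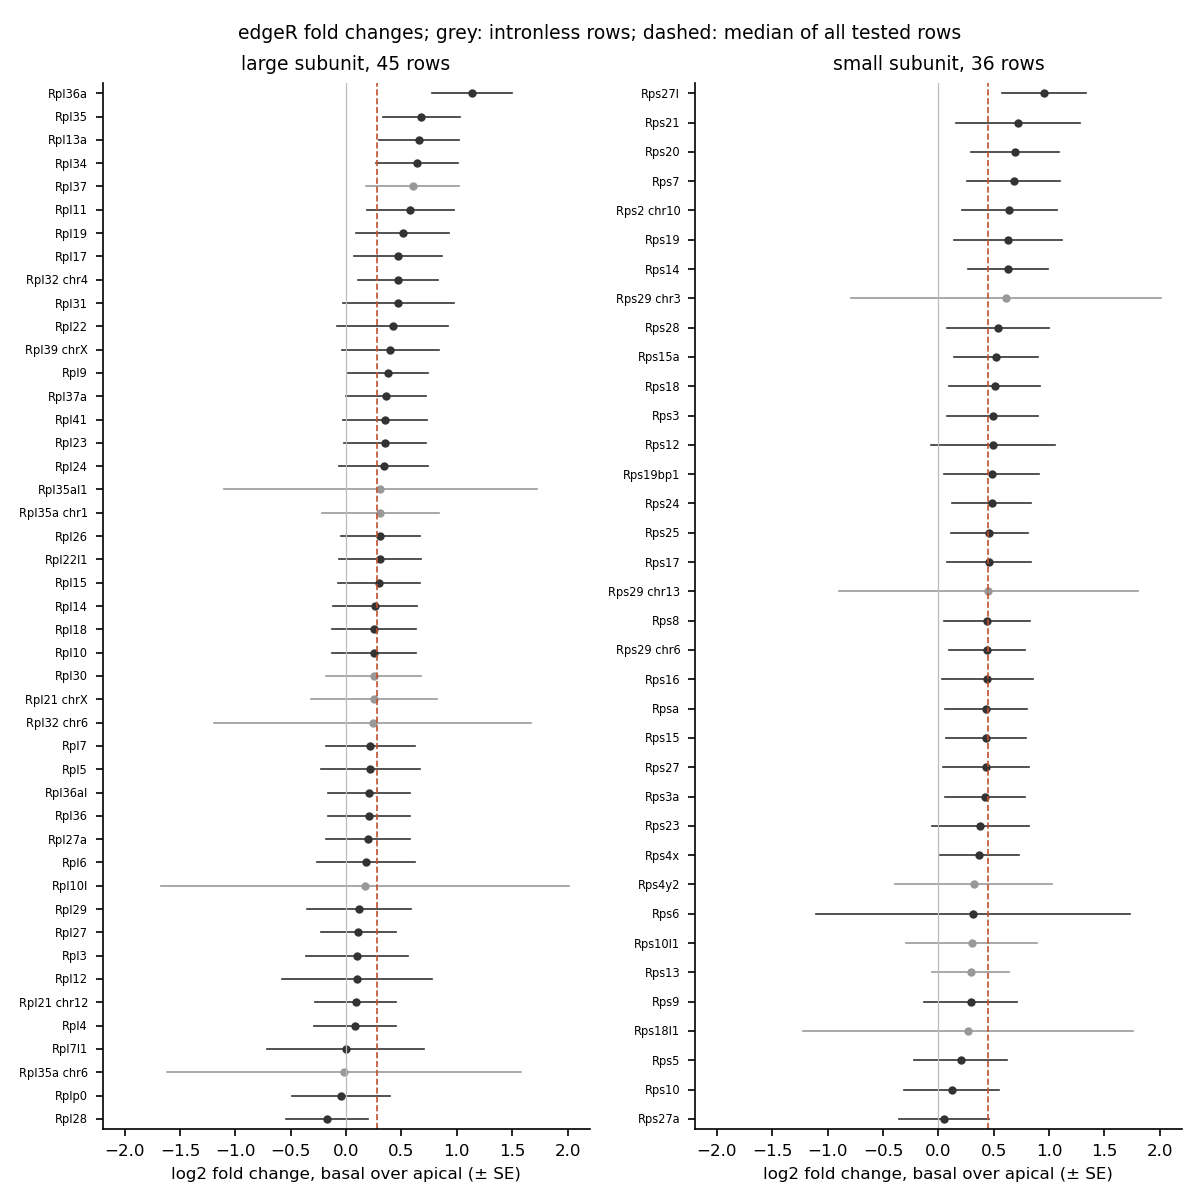
edgeR log2 fold change, basal over apical, of tested rows with its SE (bars), for 45 large subunit and 36 small subunit rows; grey rows are intronless and dashed lines are the medians over all tested rows, 0.28 and 0.45. Rpl36a at 1.14 and Rps27l at 0.95 are the highest, and no row passed an adjusted p of 0.05.

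Paralogues were compared within each library, where no scaling enters. Of 14 pairs, 9 had both genes tested, and the exact permutation test of 3 against 3 libraries cannot go below p = 0.1. Rpl36a and Rpl36al encode nearly identical proteins. Rpl36al made up 55.5%, 44.7% and 50.3% of the pair's FPKM in basal libraries, against 66.6%, 67.8% and 63.7% in apical libraries. Every basal library lay below every apical one, and the log2 ratio of Rpl36al to Rpl36a differed by -0.95, basal minus apical (two-sided exact permutation p = 0.1, 0.45 after Benjamini-Hochberg adjustment over 9 pairs). Rpl36al itself had 174, 115 and 185 CPM in basal and 116, 145 and 148 CPM in apical libraries, with a log2 fold change of 0.21 (SE 0.37).

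Rps10l1, an intronless copy of Rps10, made up 27.7%, 26.5% and 26.6% of its pair's FPKM in basal libraries, against 23.8%, 24.4% and 24.8% in apical libraries. The groups did not overlap, and the log2 ratio differed by 0.20 (two-sided exact permutation p = 0.1, adjusted 0.45). Rps27l made up 29.4%, 26.3% and 34.9% of the pair with Rps27 in basal libraries, against 29.1%, 23.0% and 21.0% in apical libraries, which overlapped (two-sided exact permutation p = 0.2, adjusted 0.45). Rpl22l1 made up more of its pair than Rpl22 in all 6 libraries, with 66.4%, 60.0% and 51.2% in basal and 71.7%, 57.1% and 57.7% in apical libraries. Its share did not separate the groups (two-sided exact permutation p = 0.7, adjusted 0.8). Rpl22l1 had 277, 236 and 217 FPKM in basal and 195, 207 and 220 FPKM in apical libraries, and Rpl22 had 140, 157 and 207 FPKM in basal and 77.2, 156 and 161 FPKM in apical libraries.

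The other pairs overlapped between the groups. Rpl7l1 made up 20.6%, 54.6% and 27.2% of the pair with Rpl7 in basal and 45.7%, 40.2% and 36.6% in apical libraries, a wide spread in basal cells. Rps4y2, an intronless copy here on chromosome 4, made up 6.68% to 8.89% of the pair with Rps4x in basal and 4.43% to 11.0% in apical libraries. Rpl10l, which replaces Rpl10 in the male germ line of the mouse, made up 0.0165% to 2.61% of its pair in basal and 0.854% to 3.25% in apical libraries, with 1 count in basal replicate 1. Rpl35al1 and Rps18l1 made up at most 3.06% in any library. Of the pairs with an untested gene, Rpl3l, a paralogue of Rpl3 known from heart and skeletal muscle, and Rpl39l, a paralogue of Rpl39 known from testis, were listed at 0 in all libraries. Rpl30l1, Rpl5l1 and Rps19l1 had at most 1 count in a library. Apart from Rpl36a, the genes paired with these paralogues overlapped between the groups. Among them, the rows of Rpl30 and of Rpl35a on chromosome 1 are themselves intronless. Whether these rows are parent genes or copies is not known. Rpl3, near the peptidyl transferase centre, averaged 1074 ± 456 FPKM in basal and 1034 ± 472 FPKM in apical libraries, and Rpl10, which joins late in assembly, averaged 752 ± 235 and 654 ± 196 FPKM (SD, n = 3 each). Rpl5 averaged 495 ± 234 FPKM in basal and 436 ± 141 FPKM in apical libraries, and Rpl39 averaged 331 ± 114 and 260 ± 97 FPKM. Rps4x averaged 707 ± 159 FPKM in basal and 570 ± 165 FPKM in apical libraries, Rps10 averaged 271 ± 67.2 and 261 ± 93.5 FPKM, and Rps19, mutated in human Diamond-Blackfan anaemia, averaged 297 ± 104 and 199 ± 102 FPKM. Rpl30, Rpl35a (chromosome 1) and Rpl7 averaged 288 ± 71.9, 173 ± 47.4 and 102 ± 33.7 FPKM in basal libraries, against 253 ± 97.2, 149 ± 30.3 and 91.6 ± 31 FPKM in apical libraries. Rps19bp1, the partner of Rps19, had 198, 108 and 141 CPM in basal and 76.5, 138 and 107 CPM in apical libraries, which overlapped, with a log2 fold change of 0.48 (SE 0.43). Copies without introns can take reads of their parent gene, and how such reads were counted is not stated in the labels.

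**Figure D5:**
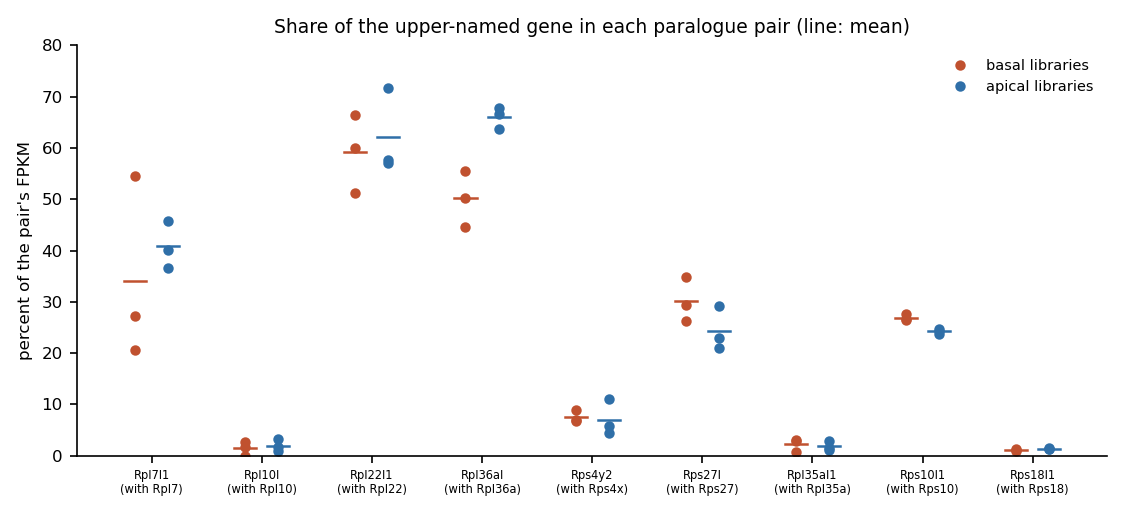
FPKM of the upper-named gene as a percent of the pair's summed FPKM, in 3 basal (red) and 3 apical (blue) libraries (lines are means), for 9 pairs. Rpl36al lies at 44.7% to 55.5% in basal and 63.7% to 67.8% in apical libraries, and Rps10l1 at 26.5% to 27.7% and 23.8% to 24.8%.

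Genes whose names fall outside the rule complete the pathway. Fau encodes a ribosomal protein fused to a ubiquitin-like protein, and Rack1 is a scaffold bound to the small subunit. Rack1 had 724, 634 and 768 CPM in basal and 493, 553 and 585 CPM in apical libraries, with no overlap. Its log2 fold change was 0.38 (SE 0.31), and that of Fau was 0.075 (SE 0.37). Rps27a, a member made as a fusion with ubiquitin, had 359, 307 and 351 CPM in basal and 181, 345 and 455 CPM in apical libraries, with a log2 fold change of 0.050 (SE 0.41). The median over elongation factors was 0.21 with 6 of 10 positive, and Eef1b2, an exchange factor that reloads the elongation factor with GTP, was at 0.76 (SE 0.33). Over initiation factors it was -0.079 with 15 of 37 positive, over ribosome assembly factors -0.18 with 21 of 53 positive, and over S6 kinases -0.00075 with 5 of 10 positive. Eif4ebp1, which holds back the cap-binding factor, was at 2.15 (SE 0.93). It had 13.8, 104 and 90.2 CPM in basal and 7.59, 26.6 and 12.7 CPM in apical libraries. Pabpc1, which binds poly(A) tails, was at 0.98 (SE 0.49). The groups overlapped for both Eif4ebp1 and Pabpc1. Among assembly factors Nip7 was at -0.97 (SE 0.42) and Polr1c, a subunit of RNA polymerases I and III, at -1.66 (SE 0.84). Among S6 kinases Rps6ka1 was at -2.98 (SE 1.63), with 0 counts in basal replicate 2, and Rps6kb1 at -1.49 (SE 1.75). Rps6kb1 had 2, 10 and 899 counts in basal and 981, 914 and 829 counts in apical libraries, which overlapped. None of these lists held a gene that passed the edgeR test.

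Ribosomal proteins of mitochondria took a smaller share of counts, with a median fold change near 0. The 74 rows took 0.662% ± 0.0388 of counts in basal and 0.690% ± 0.0718 in apical libraries (SD, n = 3 each). Their median log2 fold change was -0.017 with 34 of 72 positive and 0 passing, against 0.36 with 79 of 83 positive for cytosolic members. Mrps9 was at -1.11 (SE 0.55) and Mrps2 at -1.49 (SE 0.78). Transcripts encoded in mitochondrial DNA took 13.5%, 8.74% and 7.20% of counts in basal and 5.90%, 7.60% and 4.19% in apical libraries, and the members' median was 0.37 with those genes left out.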

How the data were processed

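Read counts of each gene in each library were deposited by the authors, and the submitters' processing notes name Bowtie2 2.2.3 and TopHat2 2.0.12. Neither the genome build nor the counting tool is given in the sources used here. Per the labels' protocols, libraries came from 30 outer hair cells each and were made with a NEBNext Ultra kit, which as named does not record strand, and 7 tested members overlap a gene on the other strand. The deposited FPKM values, per the file headers, equalled count over length and library total for 68 of 85 members with counts in all libraries (relative tolerance 1e-06) and differed for 17. Log2 fold changes and p-values that the authors deposited are named as theirs.

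Counts as deposited were tested with the edgeR 4.0.16 quasi-likelihood test in R 4.3.3, with filterByExpr (13507 genes) and TMM scaling. There was no covariate, and Benjamini-Hochberg adjustment was over all genes. On simulated counts the same test called 2 of 50 genes changed 4-fold, 18 of 50 changed 16-fold and 1 of 13307 unchanged. SEs are the log2 fold change over the square root of F. Alternatives used DESeq2 1.42.0, limma 3.58.1 (voom, and log2(FPKM + 1)), other scalings and filters, the replicate number as a block, and each library left out. Start sequences came from RefSeq (GRCr8), matched by symbol and chromosome. Named members were every passing one, the 5 highest and 3 lowest tested levels and the 5 smallest p per subunit, stalk genes, Rpsa, paralogue pairs, Rps19bp1 and rows at 0; others named were chosen after their values were seen. Members, lists and tests were chosen with earlier results of these data known. Intervals cover counting error only. Some of the members and listed genes that enter these counts are not reported here by name.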

Additional observations from a re-analysis of the deposited data

How the results depend on the processing

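The members' median log2 fold change and the number of members higher in basal libraries kept their direction under every alternative run; the median ranged from 0.14 to 0.59 with a library left out (large subunit 0.056 to 0.49, small subunit 0.24 to 0.71) and members higher from 61 to 81. The number of members called was 1 with DESeq2 and 0 with any library left out. Genes called over the whole table were 663 with DESeq2, 8 with no count filter, 28 with the bias-adjusted test and 289 without basal replicates 2 and 3 (an alternative added after seeing the data, where the single basal library is taken to vary as apical libraries do), and 0 to 2 with a library left out; the causes were not tested. The members' mean share was 5.86% of summed FPKM in basal and 4.95% in apical libraries, against 3.11% and 2.54% of counts, a change made by weighting by length. With a library left out the count share averaged 2.79% to 3.44% in basal and 2.12% to 2.96% in apical libraries. With the replicate number as a block the median was 0.40 and 0 members were called. Over all genes tested, deviations of same-numbered libraries from their group means correlated at r = -0.0384, 0.00667 and 0.138 for replicates 1 to 3. Over members the values were -0.263, -0.0406 and -0.12. These values cannot settle whether the numbers pair the libraries.

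Of 41 named members, 17 changed sign in 55 of 902 values, none of them called. Rplp0 was at 0.014 with DESeq2 and RLE scaling, 0.061 with voom and 0.055 with the replicate block, and the Rpl35a row on chromosome 6 at 0.056 with DESeq2 and RLE scaling and 0.00015 with no count filter. Rpl7l1 was at 0.077 with DESeq2, 0.076 with RLE scaling, 0.0021 with TMM without the members, 0.00073 without mitochondrially encoded genes, 0.0067 with no count filter and 0.0053 at 1 CPM in 3 libraries. Rpl10l was at -1.48 with voom, -0.64 on log2(FPKM + 1) with and without a filter, -1.42 on log2(FPKM + 0.1) and -0.45 with the block. With a library left out the values ranged from -0.35 to 0.37 for Rplp0, -0.81 to 0.30 for Rpl35a on chromosome 6, -0.67 to 0.40 for Rpl7l1, -0.32 to 0.78 for Rpl10l, -0.055 to 0.36 for Rpl36 and -0.057 to 0.91 for Rpl35al1. They ranged from -0.0068 to 0.53 for Rps18l1, -0.24 to 0.51 for Rpl3, -0.067 to 0.48 for Rpl7, -0.14 to 0.38 for Rps10, -0.078 to 1.16 for Rps4y2, -0.011 to 0.51 for Rpl35a on chromosome 1, -0.13 to 0.71 for Rps6 and -0.12 to 0.53 for Rpl5. Without basal replicates 2 and 3, Rpl35al1 was at -0.77, Rpl35a on chromosome 6 at 0.88, Rpl10l at -6.71, Rps18l1 at -0.085, Rpl10 at -0.15, Rpl3 at -0.55, Rpl30 at -0.0047, Rpl39 at -0.044, Rpl5 at -0.66, Rpl7 at -0.066, Rps10 at -0.14 and Rps4y2 at -0.12. The causes were not tested. With 3 libraries a group, differences of the members' size could not be separated from the spread between libraries.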
